A study of Homo sapiens with 12 samples.

Results

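The data were RNAseq libraries from the established human lines HCT116 and SW480, both derived from colon cancers, in which either the standard isoform of CD44 (CD44s-OE, labelled CD44std) or its variant with exon v6 (CD44v6-OE) is labelled as overexpressed. The contrast described here is the one between the isoforms, taken over both lines at once. It rests on 8 of the 12 libraries of the series, chosen by their labels: 4 CD44s-OE libraries (HCT116 and SW480, 2 each) against 4 CD44v6-OE libraries (HCT116 and SW480, 2 each). The other 4 libraries came from the untransfected parental lines and give only levels beside those of the OE cells. OE cells were stably transfected by FuGENE HD with an expression plasmid for human CD44s or CD44v6 and selected with Geneticin, the names of the aligned files call them pools, and no library of empty-vector cells was analysed here. The plasmids the study lists, pcDNA-human-CD44s and pUC57-human-CD44v6, differ in backbone as well as insert, so that isoform and backbone cannot be told apart in any comparison below, and how the CD44v6 cells came to resist Geneticin is not given in the sources used here. Both OE groups have passed through transfection and drug selection, which the parental cells have not. Nothing in the labels says that the 2 libraries of a group came from separate cultures, so the spread between them may be technical. The p-values of the test over both lines measure that spread together with any difference of the isoform effect between the lines.

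CD44 is a transmembrane receptor for hyaluronan, a glycan of the extracellular matrix, and its pre-mRNA holds a run of variant exons that are skipped in the standard isoform and kept in various combinations in the others. Epithelial cells favour the variant forms through the splicing factors ESRP1 and ESRP2, whereas cells that pass through epithelial to mesenchymal transition (EMT) turn to CD44s. EMT is driven by transcription factors such as ZEB1, which binds E-box sequences and represses genes of cell junctions and of apical polarity.

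The libraries held 45292248 to 51981303 counts over the 8 OE libraries, in which each read of a pair was counted. Of the 10 markers of colon epithelial lines, the keratin gene KRT8 was at 3420 CPM (counts scaled to the library) or more in every OE library. KRT18 was at 1022 CPM or more, KRT19 at 687, EPCAM at 69.0 and CDX2 at 29.0. CDH1 ranged from 0.882 to 50.8 CPM and VIL1 from 0.0385 to 20.2 CPM. CDX1, LGR5 and CDH17 were at 0.745 CPM at most. Of the 10 fibroblast markers, 3 to 6 were at 0 in CD44s-OE and 4 to 5 in CD44v6-OE libraries, and their summed level was 3.08 to 58.3 CPM in CD44s-OE and 3.97 to 35.6 CPM in CD44v6-OE. Of the fibroblast markers, COL1A1 reached 37.5 CPM, COL3A1 20.6 CPM, LUM 40 counts and PDGFRB 34 counts, and the other 6, among them DCN and DPT, had 8 counts at most. Leukocyte markers summed to 1.63 to 9.95 CPM in CD44s-OE and 1.58 to 4.88 CPM in CD44v6-OE. CD52 reached 4.47 CPM, CD14 4.35 CPM, ITGAM 76 counts and LYZ 59 counts, and the other 6 leukocyte markers, among them PTPRC, had 10 counts at most. Neuron markers summed to 24.4 to 68.6 CPM in CD44s-OE and 20.9 to 56.3 CPM in CD44v6-OE, with SYT1 at 15.2 to 54.6 CPM. Endothelial markers summed to 1.55 to 3.62 CPM in CD44s-OE and 1.52 to 5.87 CPM in CD44v6-OE. The part of these transcripts of other cell types in the results was not tested. The replicates did not agree equally well. Over 9950 genes with a log2 CPM of at least 3, the 2 replicates differed with an SD of 0.464 in HCT116 CD44s-OE, against 0.181 in HCT116 CD44v6-OE, and 0.315 in SW480 CD44s-OE, against 0.348 in SW480 CD44v6-OE, so that counts are also given without single libraries. In such bulk libraries, fewer cells with a transcript and less of it per cell cannot be told apart.

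The primers that the study used to tell the isoforms apart are shown because they mark what differs between the 2 groups. Capitals mark the bases of the CD44s reverse primer that lie beyond the splice junction, and all sequences run 5′ to 3′.
CD44s forward: aagacatctaccccagcaac
CD44s reverse: TCTCtggtagcagggattc
CD44v6 forward: gtggtttggcaacagatggc
CD44v6 reverse: tgtccctgttgtcgaatggg
Placed on GRCh37, the CD44s forward primer lies at chr11:35211442-35211461 in the CD44 exon that spans 35211382 to 35211612. The CD44s reverse primer takes 15 bases from the end of that exon and 4 bases from the start of the exon that spans 35236399 to 35236461, so that it spans the junction made when the variant exons between them are skipped. Both CD44v6 primers lie within a single variant exon, 35226059 to 35226187, at 35226111 to 35226130 and at 35226164 to 35226183.

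Total CD44 RNA did not separate the groups in the test over both lines. In CPM (read counts scaled to library size after TMM normalization), CD44 (ENSG00000026508, chr11:35160429-35253949 on hg19) was at 577 and 522 in HCT116 CD44s-OE, with 509 and 510 in HCT116 CD44v6-OE and 545 and 547 in parental HCT116. For SW480 the CD44 levels were 181 and 210 CPM with CD44s-OE, 135 and 148 CPM with CD44v6-OE and 189 and 163 CPM in parental cells. The CD44s-OE libraries lay above the CD44v6-OE libraries in each line and overlapped the parental ones, with a log2 fold change of CD44s-OE over CD44v6-OE of 0.29 ± 0.11 (SE) and an adjusted p of 0.305. Both CD44v6-OE libraries lay below both parental libraries in each line. The study reports ectopic expression of CD44s and CD44v6 in its OE cells. It checked how well overexpression worked by RT-qPCR, normalized to constitutive CD44 exons, and by western blot, on which these counts do not bear. The count of a gene sums all of its isoforms and cannot give the share of a single one. Neither OE group had both libraries above both parental ones in either line. Total CD44 counts thus do not show the overexpression given in the labels, and do not measure it by isoform. CD44s-OE and CD44v6-OE therefore stand throughout for the libraries labelled so, and the isoforms themselves were not measured by these counts. The antisense gene CD44-AS1 (ENSG00000255443, chr11:35231890-35236532, minus strand) was found almost entirely in the CD44v6-OE libraries. HCT116 CD44s-OE gave 0 and 0 counts of it, against 97 and 119 for HCT116 CD44v6-OE. SW480 CD44s-OE gave 3 and 0 counts, against 154 and 177 for SW480 CD44v6-OE. The parental libraries held 1 count at most. Against the floor of 6 counts per library that a count of 0 allows (3 read pairs, for counting error only), CD44-AS1 was at least 16.8-fold lower in HCT116 CD44s-OE than in HCT116 CD44v6-OE. Of its exons, the one at 35236378 to 35236532 shares 63 bases, on the opposite strand, with the CD44 exon at 35236399 to 35236461. Whether its reads come from the endogenous locus or from the construct was not tested.

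**Figure D1:**
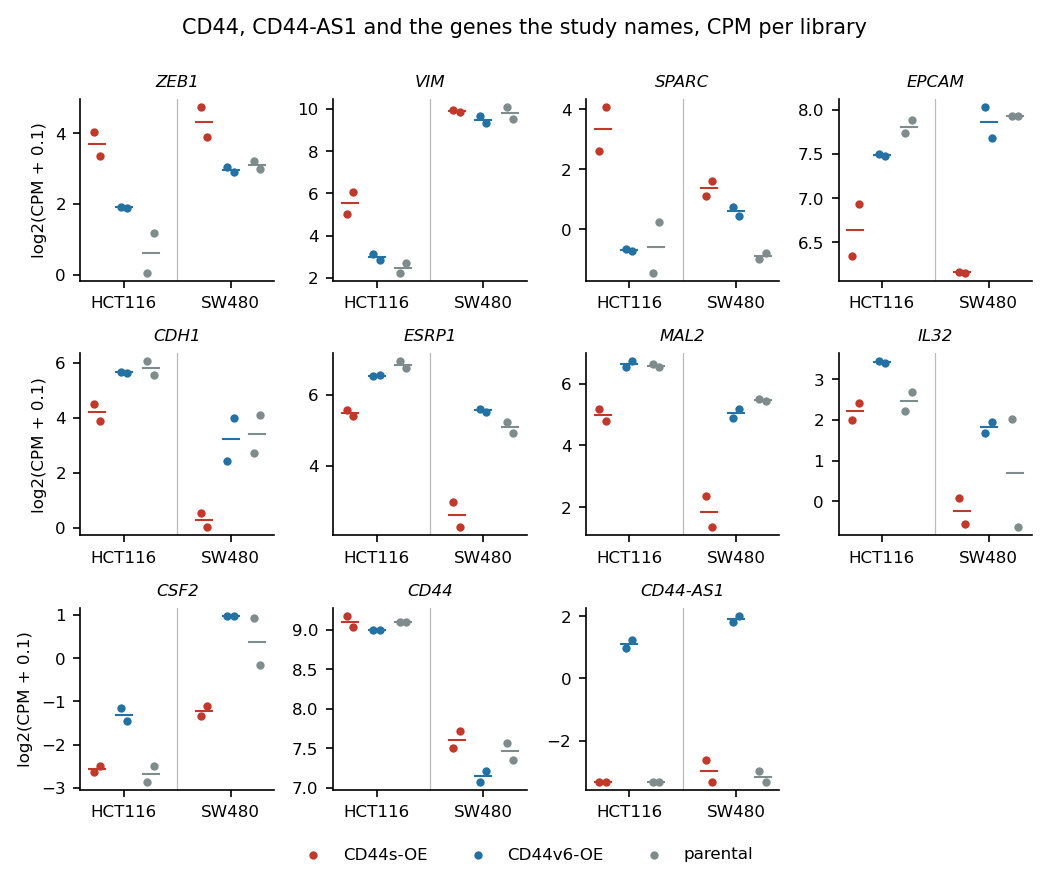
Each panel plots 1 gene as log2(CPM + 0.1) on the vertical axis for the 12 libraries, with CD44s-OE in red, CD44v6-OE in blue and parental cells in grey, HCT116 left and SW480 right. Points are libraries and lines are means of 2. CD44-AS1 is high in the 4 CD44v6-OE libraries, whereas CD44 itself differs by a log2 fold change of 0.29 between the isoforms.

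To find what distinguishes the isoforms in both lines, the 8 OE libraries were fitted with edgeR's quasi-likelihood test, with cell line and isoform as terms, over 19155 genes that passed its filter on low counts. Log2 fold changes are CD44s-OE over CD44v6-OE throughout, ± SE, with Benjamini-Hochberg adjustment of p across the tested genes. Calls needed a log2 fold change beyond 1.5 in either direction together with adjusted p below 0.1. A called gene was taken as shared when both CD44s-OE libraries lay on the same side of both CD44v6-OE libraries in each line. In CD44s-OE, 46 genes were called higher (0.240% of those tested) and 61 lower (0.318%). Of these, 24 higher genes and 49 lower genes were shared, or 52.2% and 80.3% of the calls. Over all tested genes, the libraries parted in both lines with CD44s-OE higher for 5.27% and with CD44s-OE lower for 5.57%. With no minimum fold change, 161 genes (0.841%) had higher and 196 genes (1.02%) lower expression in CD44s-OE. These 2 shares are the background for each count of list members past the test below. The counts depended on single libraries. Calls came to 70 higher and 124 lower without the first HCT116 CD44s-OE library. They came to 25 and 36 without the first and 17 and 32 without the second SW480 CD44s-OE library, and to 27 and 36 without the first SW480 CD44v6-OE library.

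The shared calls were better expressed on the lower than on the higher side. Of the 49 genes lower in CD44s-OE, 45 had over 6 counts in both CD44v6-OE libraries of each line, and 27 averaged at least 1 CPM in CD44v6-OE of both lines. Of the 24 genes higher in CD44s-OE, 14 had over 6 counts in both CD44s-OE libraries of each line and 4 averaged at least 1 CPM in CD44s-OE of both lines. These 4 were ZEB1, ATOH8, GGT5 and GNG2, of which GGT5 and GNG2 were named after their values were seen.

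**Figure D2:**
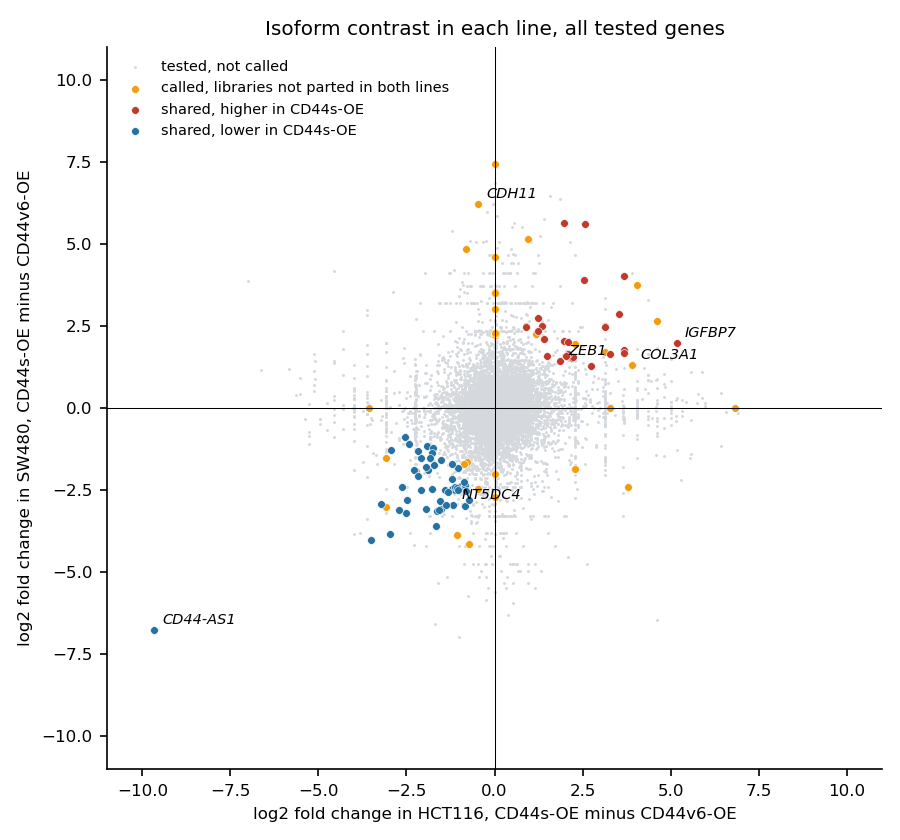
Each point is 1 of 19155 tested genes, with its log2 fold change of CD44s-OE over CD44v6-OE in HCT116 on the horizontal axis and in SW480 on the vertical axis. The 24 shared higher genes (red) lie at the upper right, the 49 shared lower genes (blue) at the lower left, and the called genes whose libraries did not part in both lines (orange) include CDH11 and COL3A1.

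Several of the largest decreases in CD44s-OE were in a list of genes of apical sorting and of membrane traffic more widely. MAL2 (chromosome 8), a membrane protein of apical transport in polarized epithelia, was at 36.1 and 27.3 CPM in HCT116 CD44s-OE, against 93.0 and 105 CPM in HCT116 CD44v6-OE. SW480 had 5.01 and 2.45 CPM with CD44s-OE, against 29.6 and 36.4 CPM in CD44v6-OE. The groups were apart in both lines, at a log2 fold change of -2.36 ± 0.37 (adjusted p = 0.036, with 0.128, 0.166 and 0.140 without the second HCT116 CD44s-OE, the first SW480 CD44s-OE and the first SW480 CD44v6-OE library). EPN3, an epsin that takes part in clathrin-mediated endocytosis, was at 8.81 and 5.72 CPM in HCT116 CD44s-OE, against 36.8 and 34.0 CPM in HCT116 CD44v6-OE. In SW480, EPN3 was low in every library, with 0.170 and 0.121 CPM in CD44s-OE, against 0.791 and 0.288 CPM in CD44v6-OE. Its log2 fold change was -2.20 ± 0.26 (adjusted p = 0.00178). BICDL2, a dynein adaptor of the BICD family, was at 5.30 and 4.86 CPM in HCT116 CD44s-OE, against 15.6 and 13.5 CPM in CD44v6-OE, and at 0.914 and 0.384 CPM in SW480 CD44s-OE, against 5.53 and 5.30 CPM in CD44v6-OE (log2 fold change -2.18 ± 0.31, adjusted p = 0.00552). AP1M2, the epithelial medium subunit of the AP-1 clathrin adaptor, was at 34.8 and 21.0 CPM in HCT116 CD44s-OE, against 103 and 109 CPM in CD44v6-OE, and at 5.82 and 9.17 CPM in SW480 CD44s-OE, against 17.5 and 16.1 CPM in CD44v6-OE (log2 fold change -1.55 ± 0.21, adjusted p = 0.00454). MYO5B, a myosin motor of apical recycling, fell by less (log2 fold change -0.91 ± 0.17, adjusted p = 0.0157). Among the 20 tested genes of apical sorting and membrane traffic, 7 fell in CD44s-OE at an adjusted p under 0.1 (4 to 10 without 1 library), and the median log2 fold change was -0.44, against 0.01 over all tested genes.

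EPCAM, the adhesion molecule whose surface level defines the study's epithelial and quasi-mesenchymal fractions, was at 81.0 and 122 CPM in HCT116 CD44s-OE, against 180 and 178 CPM in HCT116 CD44v6-OE. In SW480, EPCAM was at 71.6 and 71.3 CPM in CD44s-OE, against 262 and 206 CPM in CD44v6-OE. Its log2 fold change of -1.26 ± 0.19 (adjusted p = 0.00911) is under the fold threshold but the groups were apart in both lines. LAMA3 and LAMB3, which encode laminin chains of epithelial basement membranes, fell too, with log2 fold changes of -1.43 ± 0.16 for LAMA3 (adjusted p = 0.00132) and -1.21 ± 0.19 for LAMB3 (adjusted p = 0.00797). Of the 19 tested epithelial adhesion molecules and keratins, 5 fell, with a median log2 fold change of -0.42.

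Of 25 tested tight junction and polarity genes, 8 fell in CD44s-OE and 1 rose, with 4 to 13 lower and 0 to 1 higher when 1 library was left out. MARVELD3, a tight junction membrane protein of the occludin family, was at 13.6 and 10.3 CPM in HCT116 CD44s-OE, against 27.1 and 24.5 CPM in CD44v6-OE, and at 2.10 and 1.40 CPM in SW480 CD44s-OE, against 11.3 and 8.51 CPM in CD44v6-OE (log2 fold change -1.75 ± 0.28, adjusted p = 0.0113). Smaller decreases passed the test for the occludin gene OCLN (log2 fold change -0.81 ± 0.16, adjusted p = 0.0272), for cingulin, CGN (log2 fold change -0.87 ± 0.16, adjusted p = 0.0174), and for PATJ, a scaffold of the Crumbs polarity complex (log2 fold change -0.87 ± 0.13, adjusted p = 0.00454). OCLN lost significance without any one of 4 libraries (adjusted p up to 0.112) and CGN without the first HCT116 CD44v6-OE library (adjusted p = 0.103). The gene that rose was CLDN2, the claudin that forms cation pores in leaky epithelia. It was at 2.29 and 3.13 CPM in HCT116 CD44s-OE, against 0.462 and 0.694 CPM in HCT116 CD44v6-OE, and was near the floor in all SW480 libraries (log2 fold change 2.08 ± 0.46, adjusted p = 0.0452, up to 0.217 without 1 library). The median log2 fold change of the list was -0.51, and for 12 of its genes both CD44s-OE libraries were below both CD44v6-OE libraries in each line.

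Of 9 tested genes of the matriptase system of epithelial surface proteases, 3 fell (1 to 5 without 1 library). ST14, which encodes matriptase, was at 167 and 97.3 CPM in HCT116 CD44s-OE, against 304 and 266 CPM in CD44v6-OE, and at 113 and 111 CPM in SW480 CD44s-OE, against 318 and 370 CPM in CD44v6-OE (log2 fold change -1.36 ± 0.17, adjusted p = 0.00208). The log2 fold change was -1.74 ± 0.39 for the protease gene PRSS22 (adjusted p = 0.0948). It was -0.64 ± 0.16 for SPINT2, which encodes a matriptase inhibitor (adjusted p = 0.0998). Both were at the edge of the threshold and lost it without single libraries, with an adjusted p of up to 0.277 for PRSS22 and 0.376 for SPINT2. Among 11 desmosome genes, PKP3, a plakophilin, passed edgeR's test (log2 fold change -0.68 ± 0.11, adjusted p = 0.00819). DESeq2 called 3 desmosome genes lower, 8 had an unadjusted p under 0.05 with CD44s-OE lower, and leaving out 1 library gave 1 to 4. Of the 16 tested epithelial transcription factors, 2 fell (1 to 6 without 1 library). GRHL1, of the grainyhead-like family, fell (log2 fold change -0.99 ± 0.23 in HCT116 and -1.01 ± 0.23 in SW480, adjusted p over both = 0.00786), as did ELF3 (log2 fold change -0.76 ± 0.19, adjusted p = 0.0888, up to 0.260 without 1 library).

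The 6 epithelial lists were pooled into a set of 100 tested genes, of which 26 fell and 1 rose. The lists were transcription factors, adhesion and keratins, tight junction and polarity, apical sorting and membrane traffic, desmosome and matriptase. A log2 fold change below 0 in both lines was seen for 72 of the 100, against 24.5% of all tested genes. The libraries parted in both lines with CD44s-OE lower for 43, against the 5.57% of all tested genes given above. Their median log2 fold change was -0.27 in HCT116 and -0.65 in SW480. Genes at an adjusted p under 0.1 and lower in CD44s-OE numbered 44 without the first HCT116 CD44s-OE library, and 16 without the first SW480 CD44s-OE or the first SW480 CD44v6-OE library. The members were written with results of these libraries known, so their direction is not independent evidence.

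Other genes among the largest shared decreases are not known as parts of junctions. C1orf210 was at 1.22 and 0.653 CPM in HCT116 CD44s-OE, against 3.60 and 3.55 CPM in CD44v6-OE, and at 0.510 and 0.202 CPM in SW480 CD44s-OE, against 2.44 and 3.55 CPM in CD44v6-OE (log2 fold change -2.45 ± 0.35, adjusted p = 0.0037). CRYBG1 fell in both lines, with log2 fold changes of -1.88 ± 0.32 in HCT116 and -1.89 ± 0.37 in SW480 (adjusted p over both = 0.00207). ATP2C2, a calcium and manganese pump of the secretory pathway (log2 fold change -2.20 ± 0.43, adjusted p = 0.0405), and ACOXL (log2 fold change -1.83 ± 0.37, adjusted p = 0.0319) were lower in the second than in the first HCT116 CD44s-OE library, at 4.77 and 1.29 CPM for ATP2C2 and at 2.84 and 0.845 CPM for ACOXL, against 8.81 and 9.36 CPM and against 4.87 and 4.35 CPM in HCT116 CD44v6-OE. Without single SW480 libraries their adjusted p went up to 0.208 for ATP2C2 and 0.178 for ACOXL. MAB21L4, NT5DC4 and LRP2, the endocytic receptor megalin, were expressed in SW480 and were at or near the floor in HCT116. MAB21L4, for example, was at 4.50 and 2.69 CPM in SW480 CD44s-OE, against 24.7 and 25.9 CPM in SW480 CD44v6-OE, and at 0.188 CPM at most in the 4 HCT116 libraries (log2 fold change -2.80 ± 0.31, adjusted p = 0.00132). Its place among the shared genes rests on 2 and 0 counts in HCT116 CD44s-OE, against 3 and 10 counts in HCT116 CD44v6-OE.

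**Figure D3:**
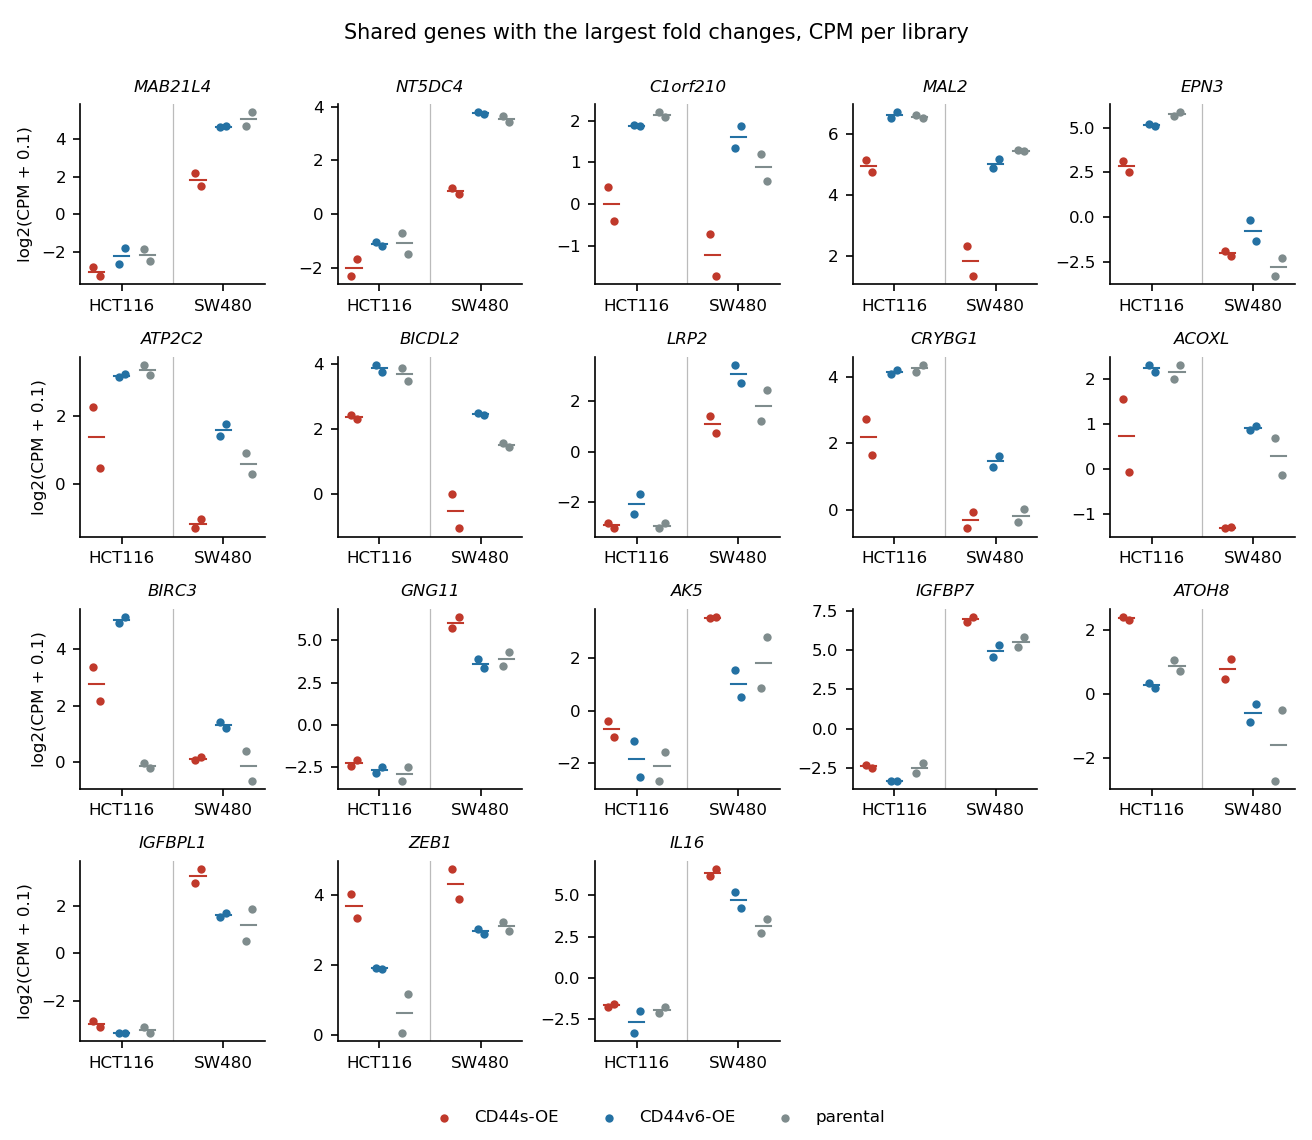
Each panel plots 1 of the shared genes with the largest fold changes (11 lower, then 7 higher in CD44s-OE) as log2(CPM + 0.1) for the 12 libraries, HCT116 left and SW480 right, with lines for means of 2. The CD44s-OE points (red) lie below the CD44v6-OE points (blue) in the first 11 panels and above them in the last 7, and several genes, such as MAB21L4 and IGFBP7, are near the floor in HCT116.

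ZEB1, the EMT transcription factor, rose in CD44s-OE of both lines. It was at 16.5 and 10.1 CPM in HCT116 CD44s-OE, against 3.67 and 3.62 CPM in HCT116 CD44v6-OE and 0.940 and 2.15 CPM in parental HCT116. In SW480, ZEB1 was at 26.8 and 14.8 CPM in CD44s-OE, against 8.17 and 7.36 CPM in CD44v6-OE and 9.26 and 7.84 CPM in parental SW480. The log2 fold change of ZEB1 was 1.64 ± 0.21 (adjusted p = 0.00208), with effects of 1.87 ± 0.30 in HCT116 and 1.42 ± 0.29 in SW480. Its adjusted p stayed under 0.1 without each of the 8 libraries in turn (up to 0.0253). The log2 fold change then went down to 1.44, which is under the fold threshold of a call. None of the other 7 tested EMT transcription factors passed edgeR's test, had an unadjusted p under 0.05 or was called by DESeq2.

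ATOH8, a helix-loop-helix factor induced by BMP signaling, was also expressed in both lines, at 5.26 and 4.93 CPM in HCT116 CD44s-OE, against 1.17 and 1.05 CPM in CD44v6-OE, and at 1.27 and 2.02 CPM in SW480 CD44s-OE, against 0.439 and 0.709 CPM in CD44v6-OE (log2 fold change 1.89 ± 0.27, adjusted p = 0.00424). It was the only gene called higher in each line when the lines were fitted alone. Most other large increases belonged to SW480. IGFBP7, a secreted binding protein of insulin-like growth factors, was at 112 and 137 CPM in SW480 CD44s-OE, against 23.3 and 40.1 CPM in SW480 CD44v6-OE, and had 5 and 4 counts in HCT116 CD44s-OE, against 0 and 0 counts in HCT116 CD44v6-OE (log2 fold change 2.03 ± 0.25, adjusted p = 0.00208). GNG11, a G protein gamma subunit, was at 53.0 and 83.9 CPM in SW480 CD44s-OE, against 14.9 and 10.1 CPM in SW480 CD44v6-OE (log2 fold change 2.33 ± 0.27, adjusted p = 0.00182), and at 0.134 CPM at most in HCT116. AK5, an adenylate kinase (log2 fold change 2.11 ± 0.39, adjusted p = 0.0207), IGFBPL1 (log2 fold change 1.73 ± 0.31, adjusted p = 0.0144) and IL16, a leukocyte chemoattractant (log2 fold change 1.57 ± 0.35, adjusted p = 0.0875), followed this pattern. Without the second SW480 CD44s-OE library the adjusted p was 0.127 for AK5, 0.194 for IGFBPL1 and 0.346 for IL16.

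Mesenchymal and matrix genes did not move as 1 group. Of 37 tested, 5 rose, and the median log2 fold change was 0.12. CCN2, a matricellular protein and target of YAP, was at 3.35 and 5.97 CPM in HCT116 CD44s-OE, against 2.54 and 1.93 CPM in CD44v6-OE, and at 12.2 and 10.4 CPM in SW480 CD44s-OE, against 4.08 and 4.21 CPM in CD44v6-OE (log2 fold change 1.26 ± 0.21, adjusted p = 0.00971). DKK1, a secreted Wnt antagonist, was higher in both lines too (log2 fold change 0.88 ± 0.16, adjusted p = 0.0157). The largest fold changes were each carried by a single line. CDH11, a mesenchymal cadherin, was at 12.0 and 12.9 CPM in SW480 CD44s-OE, against 0.0878 and 0.244 CPM in SW480 CD44v6-OE, and had 3 counts at most in the HCT116 OE libraries (adjusted p = 0.00789 over both lines). COL3A1, a fibrillar collagen, was at 7.73 and 20.2 CPM in HCT116 CD44s-OE, against 0.846 and 1.01 CPM in HCT116 CD44v6-OE, and had 2 counts at most in the SW480 libraries (adjusted p = 0.00178).

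The study's own examples for this contrast were picked from these same libraries, so their directions are no independent evidence. Of the 9 described here, ZEB1 rose and IL32, CSF2, MAL2 and EPCAM fell. For all 9, the CD44s-OE libraries lay apart from the CD44v6-OE libraries in both lines, each gene in the same direction in both. SPARC, VIM, CDH1 and ESRP1 did not pass the test over both lines, with adjusted p of 0.326, 0.386, 0.16 and 0.117. VIM, the intermediate filament of mesenchymal cells, was at 32.4 and 66.6 CPM in HCT116 CD44s-OE, against 8.54 and 7.17 CPM in HCT116 CD44v6-OE, but at 983 and 929 CPM in SW480 CD44s-OE, against 808 and 640 CPM in SW480 CD44v6-OE. ESRP1 was at 47.9 and 42.0 CPM in HCT116 CD44s-OE, against 91.8 and 94.8 CPM in HCT116 CD44v6-OE, and at 7.80 and 4.74 CPM in SW480 CD44s-OE, against 48.7 and 45.8 CPM in SW480 CD44v6-OE. A single isoform term has to place such unequal effects in the spread. When each line had its own isoform effect and their average was tested, all 4 passed, with log2 fold changes of 2.64 for SPARC (adjusted p = 0.00055), 1.53 for VIM (adjusted p = 0.00327), -2.33 for CDH1 (adjusted p = 0.0204) and -1.98 for ESRP1 (adjusted p = 9.09e-06). In the same test, 5 genes described here as higher or lower did not pass, namely CDH11 (adjusted p = 0.168), COL3A1 (adjusted p = 0.223), IGFBPL1 (adjusted p = 0.159), IL16 (adjusted p = 0.274) and CELF2 (adjusted p = 0.320). Among the splicing regulators, ESRP2, the relative of ESRP1, fell (log2 fold change -0.66 ± 0.12, adjusted p = 0.0114). So did CELF2, a low gene with up to 0.212 CPM in CD44s-OE (log2 fold change -3.01 ± 0.74, adjusted p = 0.0787, up to 0.376 without 1 library). The decrease of CELF2 was carried by SW480, with 10 and 2 counts in CD44s-OE, against 43 and 50 counts in CD44v6-OE. In HCT116, CELF2 had 0 and 0 counts in CD44s-OE, against 2 and 0 counts in CD44v6-OE. With ESRP2 this makes 2 of 21 tested, with a median log2 fold change of -0.04.

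Genes of the NFκB response and cytokines fell in CD44s-OE where they passed the test, 4 of 28, with 3 to 10 lower when 1 library was left out and a median log2 fold change of -0.49. IL32 was at 3.88 and 5.26 CPM in HCT116 CD44s-OE, against 10.7 and 10.5 CPM in CD44v6-OE, and at 0.956 and 0.587 CPM in SW480 CD44s-OE, against 3.12 and 3.75 CPM in CD44v6-OE (log2 fold change -1.63 ± 0.24, adjusted p = 0.00454). BIRC3, an inhibitor of apoptosis and NFκB target, was at 10.4 and 4.40 CPM in HCT116 CD44s-OE, 30.5 and 35.5 CPM in HCT116 CD44v6-OE and 0.863 and 0.751 CPM in parental HCT116 (log2 fold change of CD44s-OE over CD44v6-OE -1.80 ± 0.27, adjusted p = 0.00728). In HCT116, BIRC3 was above the parental level in both OE groups. TNFAIP2, another NFκB target, fell slightly (log2 fold change -0.58 ± 0.14, adjusted p = 0.0823, up to 0.279 without 1 library). CSF2, which encodes the growth factor GM-CSF, was a low gene with at most 4 counts in HCT116 CD44s-OE, against 18 and 14 counts in HCT116 CD44v6-OE, and at 0.297 and 0.364 CPM in SW480 CD44s-OE, against 1.87 and 1.86 CPM in SW480 CD44v6-OE (log2 fold change -2.35 ± 0.37, adjusted p = 0.00575). Of 37 interferon-stimulated genes, DDX60, an antiviral helicase, passed edgeR's test (log2 fold change -1.59 ± 0.24, adjusted p = 0.00497). DESeq2 called 2 of these genes lower, and leaving out 1 library gave 1 to 7 lower and 0 to 3 higher.

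Among the genes of hyaluronan and the partners of CD44, 1 rose and 2 fell of 18 tested. HAS2, a hyaluronan synthase, was at 4.42 and 3.18 CPM in SW480 CD44s-OE, against 1.14 and 1.26 CPM in SW480 CD44v6-OE, and had 9 and 12 counts in HCT116 CD44s-OE, against 0 and 2 counts in HCT116 CD44v6-OE (log2 fold change 1.94 ± 0.39, adjusted p = 0.0275, up to 0.159 without 1 library). The hyaluronidase gene HYAL1 went the other way, with a log2 fold change of -0.83 ± 0.23 in HCT116, and at 4.36 and 5.61 CPM in SW480 CD44s-OE, against 11.7 and 16.3 CPM in SW480 CD44v6-OE (log2 fold change over both lines -1.15 ± 0.19, adjusted p = 0.00832). ANK3, which encodes ankyrin-G, a cytoskeletal adaptor of the lateral membrane, fell (log2 fold change -1.68 ± 0.33, adjusted p = 0.027, and 0.121 without the first SW480 CD44s-OE library). In the lists of S phase, mitosis, MYC targets and ribosome biogenesis, oxidative phosphorylation, ERK output and intestinal differentiation, 0 of 168 genes passed edgeR's test. Over all tested genes, 0.841% were higher and 1.02% lower, so that 0 of 168 is near the background. Lists with 1 or 2 members past the test are likewise not read as results about the list. At an unadjusted p under 0.05, 9 of them were higher and 8 lower, and DESeq2 called 1 higher and 2 lower. Leaving out 1 library gave up to 4 mitosis genes higher and up to 2 genes in either direction in each of the other lists. Wnt targets had 2 genes higher (DKK1 and AXIN2) of 19, and targets of TGF-beta and BMP had 2 higher (ATOH8 and TGFB2) of 20, where AXIN2 (adjusted p = 0.0967) and TGFB2 (adjusted p = 0.0973) were at the edge of the threshold and lost it without most single libraries (adjusted p up to 0.346 and 0.342). The TGFB2 libraries overlapped in HCT116. Of 12 regulators of G protein signaling, RGS5 was the one past the test, with HCT116 at 13.6 and 20.8 CPM in CD44s-OE, against 4.85 and 4.91 CPM in CD44v6-OE (adjusted p over both lines = 0.0683, up to 0.336 without 1 library). In SW480, RGS5 was at 0.276 and 0.445 CPM in CD44s-OE, against 0.285 and 0.355 CPM in CD44v6-OE, and the libraries overlapped. Among markers of other cell types, CD52 of 4 tested leukocyte markers (adjusted p = 0.0752, up to 0.380 without 1 library) and COL3A1 of 4 tested fibroblast markers were higher in CD44s-OE.

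The levels of the parental cells place these differences. For the 49 shared genes lower in CD44s-OE, the parental mean was above both OE means for 20 genes in HCT116 and 13 in SW480, between them for 23 and 29, and below both for 6 and 7. For the 24 shared genes higher in CD44s-OE, the parental mean was below both OE means for 12 genes in each line, between them for 12 in HCT116 and 10 in SW480, and above both for 0 and 2. Each parental mean rests on 2 libraries, so the place of a single gene can depend on 1 library. Parental SW480 libraries were far apart for HAS2 (0.230 and 3.48 CPM) and close for MAL2 (45.3 and 43.4 CPM). In the fit of all 12 libraries, whose comparisons share the parental ones, MAL2 had a log2 fold change of -2.49 in CD44s-OE over parental cells and -0.23 in CD44v6-OE over parental cells, ST14 had -1.40 and -0.02, EPCAM -1.44 and -0.18, and ZEB1 2.10 and 0.43. Other genes had larger log2 fold changes over parental cells in CD44v6-OE than in CD44s-OE. Those were 1.58 in CD44s-OE and 3.44 in CD44v6-OE for BIRC3, 1.04 and 2.60 for DDX60, -0.77 and 1.38 for LRP2, and -0.32 and 0.80 for HYAL1. None of them passed in either OE group in this edgeR fit, with an adjusted p of 0.203 or more. Mean levels in CD44s-OE, CD44v6-OE and parental cells were 7.38, 33.0 and 0.807 CPM for BIRC3 in HCT116. Those in SW480 were 0.973, 2.39 and 0.864 CPM. DDX60 averaged 10.5, 35.5 and 2.55 CPM in HCT116 and 0.332, 0.771 and 0.515 CPM in SW480, in that order.

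The lines shared part of the contrast. Across all 19155 tested genes, the log2 fold changes of HCT116 and SW480 had a Pearson r of 0.0819 and a Spearman rho of 0.112, and 53.0% had the same sign. Genes are not independent replicates, and these values are a description. Since the libraries of the lines are separate, the genes called in one line alone can be read in the other. Of the 16 genes called lower in HCT116 CD44s-OE, 13 were tested in SW480, and for 12 of them the SW480 CD44s-OE libraries were both below the CD44v6-OE libraries (92.3%, against 24.3% of all genes tested in SW480). Of the 212 genes called lower in SW480 CD44s-OE, 157 were tested in HCT116, and 95 of them parted the same way there (60.5%, against 20.9%). Of the 13 genes called higher in HCT116 CD44s-OE, 10 were tested in SW480 and 7 parted the same way (70.0%, against 22.8%), and of the 115 called higher in SW480 CD44s-OE, 56 were tested in HCT116 and 20 parted the same way (35.7%, against 20.5%). Genes called the same way in both lines alone were BICDL2, CD44-AS1 and MAL2 (lower) and ATOH8 (higher).

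Where the lines differed was tested with an interaction of line and isoform, which passed for 223 genes (1.16%), among them 7 of the 107 called genes and 6 of the 73 shared ones. Of the 100 epithelial list genes, 15 had such a difference, and EHF and ITGB4, named after their values were seen, went opposite ways. EHF, an epithelial ETS factor, had log2 fold changes of -1.01 ± 0.25 in HCT116 and 2.14 ± 0.26 in SW480 (adjusted p of the difference = 0.00225). ITGB4, the integrin chain of hemidesmosomes, had 0.57 ± 0.15 and -0.49 ± 0.15 in these lines (adjusted p of the difference = 0.0398). PRSS22 was lower in CD44s-OE of both lines, with log2 fold changes of -0.73 ± 0.21 in HCT116 and -2.80 ± 0.23 in SW480.

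The promoters of the genes that were lower in CD44s-OE often held a short sequence, counted here. Promoter windows of 300 bases, 250 before to 50 after the start, came from RefSeq on GRCh38.p14, with 1 window per gene. They were searched for CAGGTG on either strand (its reverse complement is CACCTG), an E-box to which ZEB1 is known to bind. Of the 49 shared genes lower in CD44s-OE, 32 had a window and 22 of these (68.8%) held the motif, against 2481 of the 12648 tested genes with a window (19.6%) and 20.6% of all genes in the table. Of the 24 shared genes higher in CD44s-OE, 19 had a window and 4 (21.1%) held it. With no minimum fold change, the shares were 73 of 134 lower genes (54.5%) and 18 of 113 higher genes (15.9%). A match is a description of the letters and not a measured binding site.

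Of the 9 shared genes that belong to the epithelial lists, 3 had a window. The windows of CRB3, an apical polarity protein, and of AP1M2 held the motif and that of CLDN2, the one shared epithelial gene that was higher in CD44s-OE, did not. Both are shown, on the strand of the gene, with the matches in capitals.
CRB3: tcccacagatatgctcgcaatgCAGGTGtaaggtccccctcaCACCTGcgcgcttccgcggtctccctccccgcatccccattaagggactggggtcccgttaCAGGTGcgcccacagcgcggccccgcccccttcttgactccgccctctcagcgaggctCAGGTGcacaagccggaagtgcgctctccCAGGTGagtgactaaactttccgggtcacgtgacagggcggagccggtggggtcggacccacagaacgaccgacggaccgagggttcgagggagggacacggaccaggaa
AP1M2: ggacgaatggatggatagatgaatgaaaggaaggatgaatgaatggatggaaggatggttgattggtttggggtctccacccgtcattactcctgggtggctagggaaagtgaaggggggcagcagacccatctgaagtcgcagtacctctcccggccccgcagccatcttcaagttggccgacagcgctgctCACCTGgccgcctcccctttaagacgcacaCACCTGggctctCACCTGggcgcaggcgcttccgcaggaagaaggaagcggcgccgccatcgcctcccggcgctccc
The CRB3 window (chr19:6464021-6464320, plus strand) holds 5 matches, and CRB3 had a log2 fold change of -1.62 over both lines. Its effect differed between the lines, at -0.80 ± 0.17 in HCT116 and -2.52 ± 0.19 in SW480 (adjusted p of the difference = 0.0083). The AP1M2 window (chr19:10587263-10587562, minus strand) holds 3 matches, all upstream of the start. Other shared lower genes are named here for their motif counts after these were seen. RAB19 and MACC1 held 3 each, and C1orf210, CRYBG1, RNF223, IL23A, WFDC2, KDF1, GALNT3 and MAP7 held 2 each.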

How the data were processed

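RNA from HCT116 and SW480 cells was sequenced by the study with the DNBseq protocol. According to the study's methods and the submitters' processing notes, SOAPnuke removed adapters and poor reads, STAR 2.7.9a placed the rest on hg19, and featureCounts (Subread 2.0.3) summed them per GENCODE gene with the reverse strand setting. Raw counts of 62426 genes were deposited by the authors. They were taken as 1 count for each read of a pair, so counts were also halved as an alternative. The deposited variance-stabilized table (log2-like values by DESeq2, made by the authors) was used here only for gene symbols. Group labels, cell lines and replicate numbers came from the sample titles.

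From the counts, CPM after TMM normalization were computed with edgeR 4.0.16 (R 4.3.3, limma 3.58.1). Genes passed filterByExpr over the 4 OE groups, and a robust quasi-likelihood model with line and isoform was fitted to the 8 OE libraries, with Benjamini-Hochberg adjustment over 19155 genes. SE is the log2 fold change over the root of its F value. A model with an interaction gave the effects per line, and 1 of all 12 libraries the values against parental cells, whose CPM were set on the scale of the OE libraries. Total counts were 43102156 to 52811889 per library, and a count of 0 allows 3 read pairs, or 6 counts, for counting error only. The scripts were tested on simulated data.

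Genes named are CD44 and CD44-AS1, the study's 10 examples, the 12 largest shared changes in each direction with a symbol and an average log2 CPM of at least 1 (7 higher genes met this) and up to 4 members of each of 27 lists in each direction, by p. Libraries, lists and rule were chosen with earlier results of these data known, and the epithelial lists were joined after values were seen. Some genes that met this rule are not reported here. Of the list genes, 2 matched no measured gene. Alternatives were RLE factors, library size alone, other filters, a fit without robust estimation, a replicate block, DESeq2 1.42.0, an averaged effect, all 12 libraries, each line alone, each library left out and other thresholds. CD44 primers came from the study's supplementary tables, exons from GENCODE on GRCh37 and promoters from RefSeq.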

Additional observations from a re-analysis of the deposited data

Results flagged for a closer look

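Of the genes named by the rule and described here, 5 had an isoform effect that differed between the lines in the interaction test. The effect is the log2 fold change of CD44s-OE over CD44v6-OE, and the difference is given as SW480 minus HCT116. CRB3, EHF and ITGB4, named outside the rule, also differed, with the values given above. The difference was -1.86 for ESRP1 (adjusted p = 0.00967), -2.08 for PRSS22 (adjusted p = 0.0083) and -0.88 for SPINT2 (adjusted p = 0.0806), with effects of -2.92, -2.80 and -1.08 in SW480 and of -1.05, -0.73 and -0.20 in HCT116. It was -2.25 for VIM (adjusted p = 0.0379) and -3.61 for SPARC (adjusted p = 0.0192), with effects of 0.40 and 0.83 in SW480 and of 2.66 and 4.44 in HCT116. What sets these differences was not tested. With 2 libraries per group, single libraries far from their group cannot be tested for.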

How the results depend on the processing

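The numbers of called genes depended on which libraries entered. Leaving out 1 library at a time gave 17 to 70 genes called higher and 32 to 124 called lower in CD44s-OE, of which 11 to 39 and 28 to 93 were shared, and 16 to 44 epithelial list genes lower. The lowest counts of called genes came without the second SW480 CD44s-OE library and the highest without the first HCT116 CD44s-OE library. Of the 54 named genes past an adjusted p of 0.1, 33 passed without each of the 8 libraries in turn, among them ZEB1, EPCAM and ST14, and 21 did not. No gene named by the rule changed direction under any alternative in which it was tested. Low genes dropped out of some alternatives, among them CDH11, whose log2 fold change in HCT116 was -0.48 ± 1.27 in the interaction model. EHF and ITGB4, named outside the rule, went opposite ways in the lines.

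Without the filter on low counts, 86 genes were called higher and 101 lower, with 48 epithelial list genes lower. With a mean count of at least 50, there were 22 higher genes, 12 of them shared. DESeq2 gave 40 epithelial list genes lower. The average of the effects of both lines gave 47 shared higher genes, 74 shared lower genes and 44 epithelial list genes. All 12 libraries in 1 fit gave 25 higher genes (12 shared), 39 lower genes and 16 epithelial list genes. HCT116 alone gave 13 higher, 16 lower and 7 epithelial list genes, and SW480 alone gave 115, 212 and 52. An adjusted p under 0.05 gave 30 higher genes (15 shared) and 17 epithelial list genes. With no minimum fold change there were 161 higher (129 shared) and 196 lower genes (178 shared), and with a log2 fold change over 1 there were 79 (52 shared) and 113 (97 shared). The causes were not tested where the setting does not state them.

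Replicate numbers did not pair the samples, since same-numbered libraries deviated together with r = 0.156 in HCT116 and -0.17 in SW480. A replicate block gave 35 higher and 39 lower genes, 32 shared lower genes and 16 epithelial list genes. With the numbers of SW480 CD44v6-OE crossed, a choice made after seeing the data, the block gave 41 higher and 46 lower genes.

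With 2 libraries a group, small differences and genes near the floor of 6 counts cannot be resolved, and the shared higher genes include 10 of 24 under that floor in at least 1 line.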
